A study of Mus musculus with 10 samples.

Results

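Calcium/calmodulin-dependent kinases turn a rise of calcium in a cell into protein phosphorylation. The members described here are the 10 genes Camk2a, Camk2b, Camk2d, Camk2g, Camk4, Camk1, Camk1d, Camk1g, Camkk1 and Camkk2. They were taken by gene symbol from the 24837 genes of the deposited matrix, and all 10 were found once. Nuclei came from the hippocampus of unstimulated wild-type (WT) mice of the strain the labels give as C57B/6J, aged 4 to 7 months. The labels list 10 samples of 1 group, and the titles of some call them RNASET2 controls. Whole nuclei were sorted on the dye 7AAD and read at the 3' ends of transcripts with 10x Genomics droplet chemistry. The protocol in the labels names no sort for a cell type, but sets of nuclei described below differed strongly in make-up.

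Calcium first binds calmodulin, and the complex then opens these kinases. CaMKII is a large ring of subunits from the genes Camk2a (alpha), Camk2b (beta), Camk2d (delta) and Camk2g (gamma). It can stay active after the calcium has gone, and at hippocampal synapses it is known for its part in long-term potentiation and memory. CaMKI (Camk1, Camk1d, Camk1g) and CaMKIV (Camk4) need a further phosphate from the upstream kinases CaMKK1 (Camkk1) and CaMKK2 (Camkk2). CaMKIV works largely in the nucleus, where CREB is among its substrates.

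The matrix held 15661 barcodes carrying 7 different suffixes. Nuclei with the same suffix form a barcode set below, but which sample or samples a set came from is not known. The nuclei therefore count as a single sample: no p-value was computed for it, and the 95% intervals reflect counting error alone. Values by set are given because the files split the nuclei in no other way, and sets are not replicates. Nuclei with at least 500 unique molecular identifiers (UMIs, tags that count captured transcripts) were clustered without the 10 kinase genes and named from marker genes, so each name means "like that cell type". Of the 15247 nuclei used, 10207 were neurons, 3457 were non-neuronal and 1471 (9.65%) stayed unnamed. Cajal-Retzius cells, early-born neurons of the hippocampal surface, numbered 112 and were put on neither side. All 9 dentate granule markers, all 10 microglial, all 10 astrocyte and all 9 oligodendrocyte markers were at least 2-fold higher in their own class than in the other named nuclei, as were 8 of 9 for CA1 and 7 of 11 for CA2/CA3. Of the markers of the subicular or cortical class 8 of 14 were at least 2-fold higher. The same markers were used to cluster and name the nuclei, so these counts do not test the names. Median UMIs per barcode ran from 1012 in set 7 to 8176 in set 3. The sets differ in make-up: set 6 was 99.9% neurons, set 7 was 0.151% neurons, and 24.4% of set 1 stayed unnamed. Between sets, 21 barcode sequences occurred more than once.

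Levels are UMIs per 1000000 UMIs (CPM) of a class. A 3' count does not compare one gene with another, since capture differs between genes, so levels are compared for 1 gene across classes. A lower level over a class can mean fewer nuclei with the transcript or less of it per nucleus, and these were not told apart except where shares of nuclei are given. Free RNA in the droplets was gauged by Slc17a7, which loads glutamate into synaptic vesicles. It was at 232 CPM in excitatory neurons (n = 8506 nuclei), 8.68 CPM in inhibitory neurons (n = 1701) and 28.8 CPM in non-neuronal nuclei. Its non-neuronal level was thus 0.148 of its level in all neurons. A kinase gene whose non-neuronal fraction was at or under that is read here as not above background in those nuclei.

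The promoters of Camk2b and Camk2d are shown because dentate granule neurons had the highest level of Camk2b and the lowest of Camk2d among the 11 classes. The sequences are from RefSeq on GRCm38.p6, 250 bases upstream of a transcript start, 5' to 3' on the strand of the gene. The RefSeq table held upstream sequences for 7 of the 10 genes. Capitals mark the GC box, searched as GGGCGG on both strands; boxes that share bases run together.
Camk2b: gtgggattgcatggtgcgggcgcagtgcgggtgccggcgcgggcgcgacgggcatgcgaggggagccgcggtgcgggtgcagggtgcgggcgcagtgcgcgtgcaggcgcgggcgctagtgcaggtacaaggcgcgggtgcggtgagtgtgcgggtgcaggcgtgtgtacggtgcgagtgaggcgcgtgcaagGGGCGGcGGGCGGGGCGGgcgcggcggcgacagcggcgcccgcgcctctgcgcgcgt
Camk2d: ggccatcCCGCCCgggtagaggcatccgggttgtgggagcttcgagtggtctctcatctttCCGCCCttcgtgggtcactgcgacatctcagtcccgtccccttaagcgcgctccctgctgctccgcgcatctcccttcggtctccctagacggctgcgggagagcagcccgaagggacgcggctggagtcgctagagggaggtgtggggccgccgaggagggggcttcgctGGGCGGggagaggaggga
The Camk2b stretch lies at chr11:6065749-6065998 on the minus strand and the Camk2d stretch at chr3:126596701-126596950 on the plus strand, and neither overlaps an annotated exon or UTR. Both lie inside the spans of their genes given below, so an annotated start of each gene lies further upstream. Each stretch holds 3 GC boxes. The box occurs in 32.7% of 32851 upstream stretches of the same length. G and C make up 78.4% of the Camk2b stretch and 68.4% of the Camk2d stretch, beside a median of 52.4% over all stretches. CpG pairs number 44 and 23, beside a median of 6. Neither holds the CRE (TGACGTCA), the full site that CREB binds, which is in 1.55% of stretches, nor its shorter form TGACG, which is in 17.8%. A match describes letters and is no evidence of binding, and no match says only that these letters are not in the window.

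The loci are given from GENCODE M21 on GRCm38, which matched 24715 of the 24837 gene identifiers. Camk2b spans chr11:5969644-6066362 (minus strand), Camk2d chr3:126596302-126846326 (plus) and Camk2g chr14:20734875-20794088 (minus). Camk1 spans chr6:113334124-113343984 (minus) and overlaps the DNA repair gene Ogg1 on the other strand. Camk1d spans chr2:5293457-5714515 (minus) and Camk1g chr1:193346346-193370298 (minus). Camkk1 spans chr11:73019008-73042073 (plus) and Camkk2 chr5:122731170-122779409 (minus). Whether the counting used strand or intronic reads is not given in the sources used here, so reads of Camk1 and Ogg1 may not be fully separated.

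**Figure D1:**
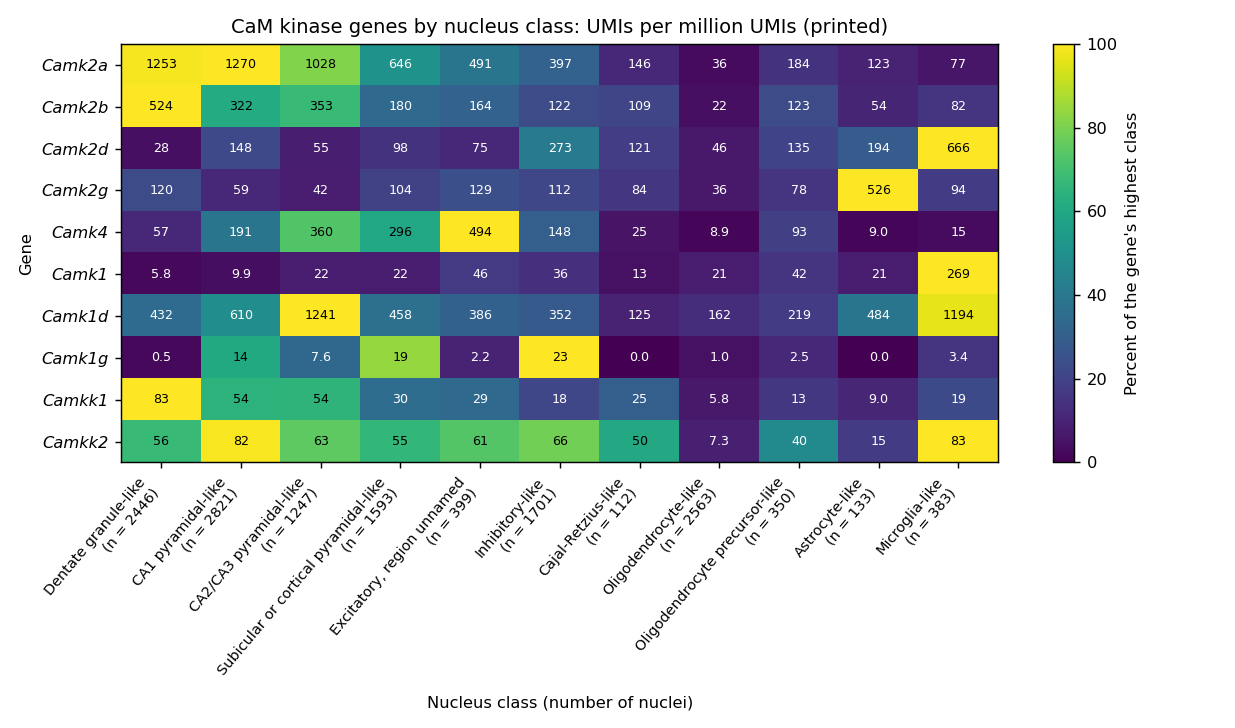
Levels of the 10 kinase genes in the 11 classes with at least 100 nuclei. Columns are classes with their numbers of nuclei, printed values are UMIs per 1000000 UMIs, and colour gives each level as a percent of the highest class of the same gene. Camk2a is highest in CA1 and dentate granule neurons, Camk2b in dentate granule neurons, Camk2d and Camk1 in microglia (666 and 269), Camk2g in astrocytes (526).

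Camk2a, the alpha subunit of CaMKII, was highest in the principal neurons of the hippocampus. Its level was 1270.5 CPM (95% interval 1255 to 1286) in CA1 pyramidal neurons and 1253 (1236 to 1270) in dentate granule neurons, and these intervals overlap. CA2/CA3 pyramidal neurons followed at 1028 CPM, subicular or cortical pyramidal neurons at 646 and inhibitory neurons at 397. A UMI of Camk2a was seen in 95.2% of excitatory nuclei (exact binomial interval 94.8 to 95.7) and in 5.77% of oligodendrocyte nuclei (4.90 to 6.75). With every nucleus thinned to 1000 UMIs, and 57 and 541 shallower nuclei left out, the shares were 65.2% and 3.81%. In excitatory neurons of sets 1 to 6, Camk2a stood at 1263, 912, 929.6, 1034, 1336 and 1451 CPM. In inhibitory neurons of the same sets it stood at 506, 400.4, 303, 369.6, 403 and 419.9 CPM. All excitatory values lay above all inhibitory ones.

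Camk2a was 13.8-fold higher in neurons than in non-neuronal nuclei (12.6 to 15.1), and 7.50 to 51.6-fold within the 5 sets that hold both sides. Its non-neuronal level of 69.2 CPM was 0.0725 of the neuronal one, under the 0.148 of Slc17a7. Non-neuronal Camk2a and Slc17a7 were both lowest in sets 7 and 1. Camk2a was at 21.5, 109, 92.2, 69.4, 137 and 8.56 CPM in non-neuronal nuclei of sets 1, 2, 3, 4, 5 and 7, and Slc17a7 at 15.5, 44.7, 40.7, 26.0, 39.1 and 1.71. Set 7 is nearly free of neurons. The part of free RNA in the other sets was not tested.

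Camk2b, the beta subunit, which binds actin, followed a similar order with a larger step at the dentate gyrus. It was at 524 CPM (513 to 535) in dentate granule neurons, 353 in CA2/CA3, 322 in CA1, 179.5 in subicular or cortical and 122 in inhibitory neurons. In dentate granule neurons of sets 1 to 6 it stood at 561, 462, 513, 538, 642 and 622 CPM. In CA1 neurons of those sets it stood at 429, 252, 291, 346, 363 and 388 CPM, so no CA1 value reached a dentate one. Neurons were 6.72-fold above non-neuronal nuclei (6.02 to 7.53), and the non-neuronal fraction of 0.149 was level with that of Slc17a7. In oligodendrocyte precursors Camk2b was at 123 CPM (104 to 144), but from 15.8 CPM in set 7 to 174 in set 2.

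Camk2d, the delta subunit, best known from heart muscle, was by class highest outside the principal neurons. Microglia, the resident immune cells, had 666 CPM (601 to 735). Inhibitory neurons had 273, astrocytes 194, CA1 neurons 148 and dentate granule neurons 27.9 CPM. Microglia of sets 1 to 4 stood at 629, 842, 597 and 648 CPM, and dentate granule neurons of sets 1 to 6 at 42.8, 19.7, 19.9, 25.7, 15.3 and 38.3. The microglial values did not overlap those of any neuronal class in the same sets. A UMI of Camk2d was seen in 55.6% of microglial nuclei (50.5 to 60.7) although their median depth was only 1314 UMIs. Between neurons and non-neuronal nuclei the ratio was 0.954 (0.889 to 1.02), so the pooled sides were not separable.

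The Camk2d level of the neuronal classes rested on a few clusters. In CA1, 1 cluster of 475 nuclei led by Dcn, C1qtnf7 and Col23a1 had 641 CPM (617 to 667), while the other 2346 CA1 nuclei had 19.0 (16.9 to 21.3). In the Dcn cluster Camk2d stood at 660.3, 675, 592 and 494 CPM in sets 2, 3, 5 and 6. In the other CA1 nuclei it stood at 8.58, 19.4, 26.0, 12.8, 22.7 and 25.7 CPM in sets 1 to 6. The cluster had 4 of 9 CA1 markers and 5 of 14 subicular or cortical markers high, with the subicular marker Tshz2 at 1299 CPM, so its place in CA1 is uncertain. Camk2d was itself among its 10 leading genes, although it took no part in the clustering.

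A similar concentration was seen among inhibitory neurons. A cluster of 387 nuclei led by Prdm16, Ano1 and Zic1 had Camk2d at 562 CPM (538 to 586), beside 151 (143 to 159) in the other 1314 inhibitory nuclei. Camk2a was 676 CPM in that cluster and 280.1 in the rest, and Camkk2 was 114 and 45.4. Set 1 supplied 42.6% of the Zic1 cluster, and its region of origin cannot be told from the labels. Among the interneuron subclasses named from their markers, Camk2d was 115 CPM in somatostatin (n = 374 nuclei), 141.5 in parvalbumin (n = 320) and 174 in Vip or Cck neurons (n = 298). In the subicular or cortical class, the clusters led by Vwc2l, by Pdzrn3 and by Fn1 had 312, 133 and 21.5 CPM.

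**Figure D2:**
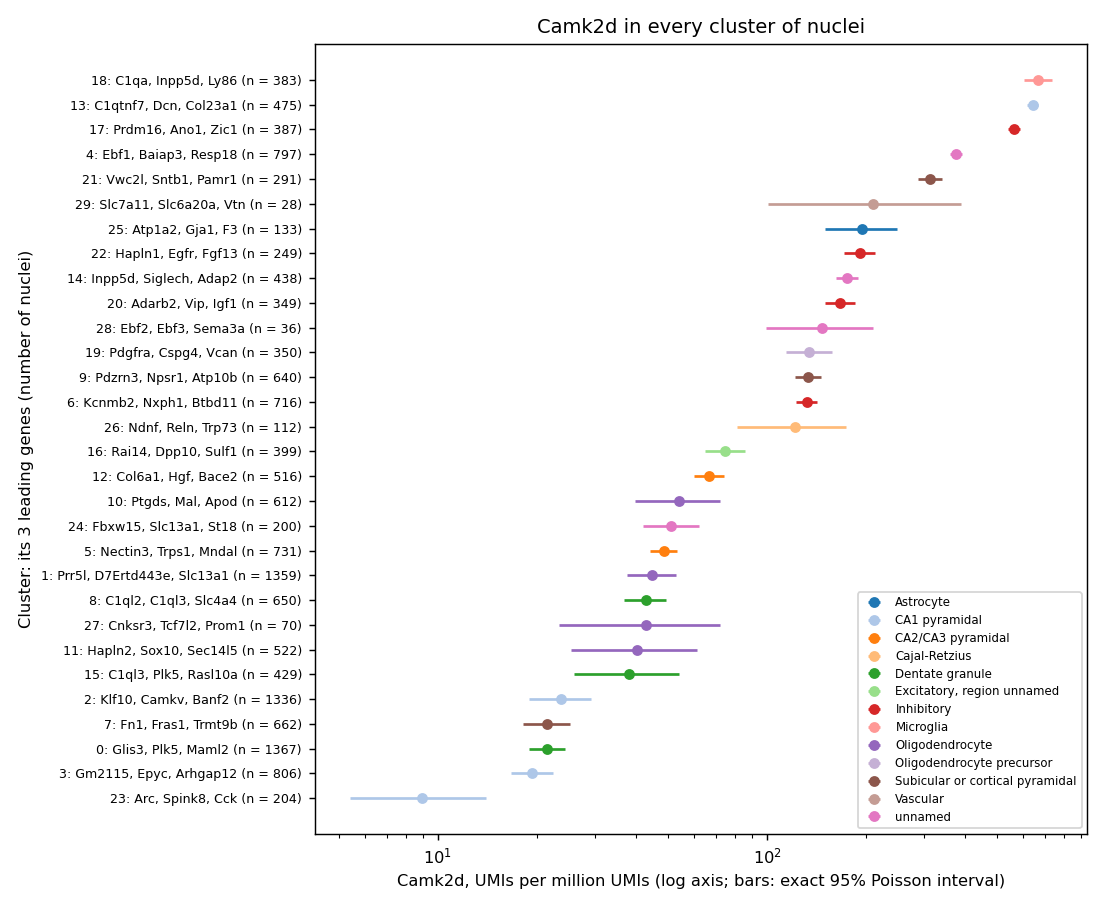
Camk2d in each of the 30 clusters, as UMIs per 1000000 UMIs on a log axis with exact 95% Poisson intervals. Microglia (666), the Dcn cluster (641) and the Zic1 cluster (562) stand highest, and the CA1 cluster led by Arc stands lowest (8.98). Set 1 supplied 97.5% of the Arc cluster, so cluster and set cannot be told apart there.

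Camk2g, the gamma subunit, was highest in astrocytes, the glia that take up glutamate. Its level there was 526 CPM (451 to 610, n = 133 nuclei), beside 112 in inhibitory, 119.6 in dentate granule, 58.8 in CA1, 42.1 in CA2/CA3 neurons and 35.8 CPM in oligodendrocytes. Astrocytes reached 50 nuclei only in set 1, where the level was 578 CPM. A Camk2g UMI was seen in 55.6% of astrocyte nuclei, and in 41.4% after thinning. Over all neurons and non-neuronal nuclei the ratio was 1.21 (1.10 to 1.32), and 0.788 to 1.96 over the 5 sets.

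The mix of the 4 CaMKII genes shifted with class. Camk2a gave 65.1% of their UMIs in dentate granule neurons (exact binomial interval 64.6 to 65.6), 70.6% in CA1, 43.9% in inhibitory neurons and 8.35% in microglia (6.15 to 11.0). Camk2d gave 1.45% in dentate granule neurons (1.32 to 1.59), 30.2% in inhibitory neurons (29.3 to 31.0) and 72.5% in microglia (68.6 to 76.3). Without the Zic1 cluster its inhibitory share was 22.9% (21.8 to 24.0). Camk2d gave 41.6% in the Dcn cluster and 1.02% in the other CA1 nuclei. Camk2g gave 58.7% in astrocytes (52.9 to 64.3), 10.1% in subicular or cortical neurons and 2.85% in CA2/CA3 neurons. These shares depend on how well each gene is captured, so only their shift between classes is described.

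**Figure D3:**
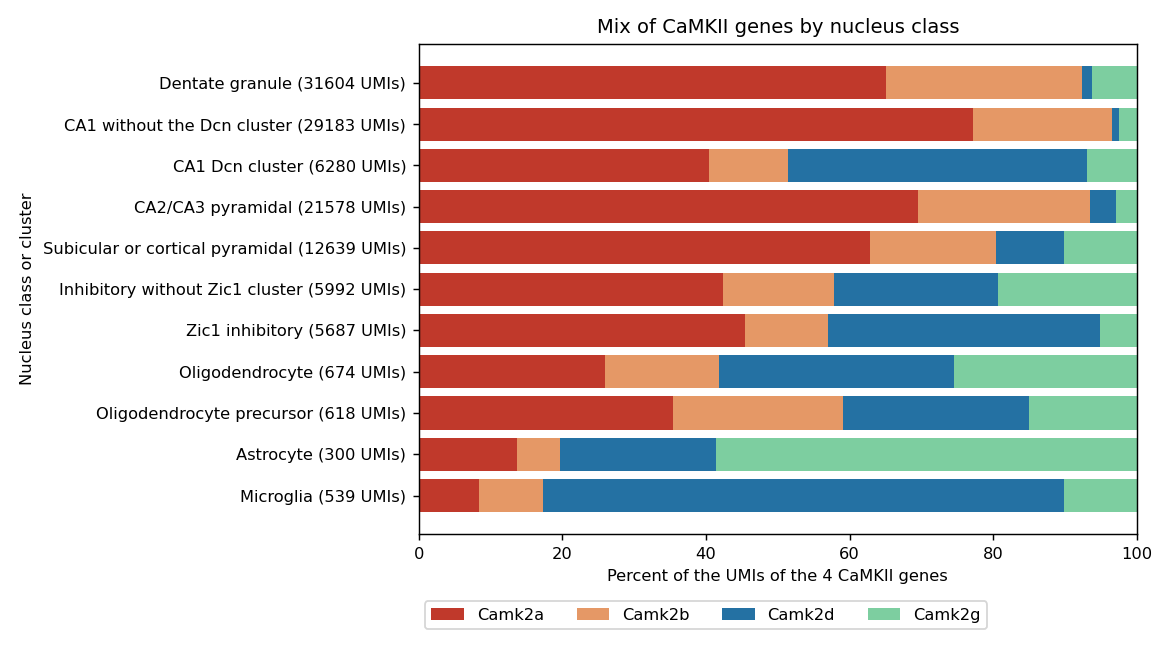
Share of the UMIs of the 4 CaMKII genes that falls on each gene, in percent, by class or cluster with its total CaMKII UMIs. Camk2a takes 77.1% in CA1 without the Dcn cluster and 40.4% in the Dcn cluster. Camk2d takes 72.5% in microglia and Camk2g 58.7% in astrocytes.

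Camk4 encodes the nuclear kinase CaMKIV. Its highest level, 494 CPM (468 to 521), was in 399 excitatory nuclei whose region could not be named. CA2/CA3 neurons had 360.1, subicular or cortical neurons 296, CA1 neurons 191 and inhibitory neurons 148 CPM, and dentate granule neurons only 57.1 (53.5 to 60.9). Dentate values by set were 48.4, 51.9, 71.4, 53.3, 107 and 70.7 CPM, and CA2/CA3 values were 274, 345, 436, 419, 330.3 and 240.3. The lowest CA2/CA3 set was thus above the highest dentate set. Within CA2/CA3, the cluster led by Col6a1 had 508 CPM and that led by Nectin3 had 276. Amigo2, among the leading genes of the first, and Nectin3 are both on the CA2/CA3 marker list. Neither cluster is placed in CA2 or in CA3 alone. Oligodendrocytes (8.94) and astrocytes (8.97) had few UMIs, 43 and 3, and the non-neuronal fraction of 0.113 was under that of Slc17a7. Oligodendrocyte precursors, dividing glia that give rise to oligodendrocytes, were higher at 93.3 CPM (76.8 to 112), with 55.1, 87.0, 139 and 71.0 in sets 1, 2, 5 and 7. The level in set 7, which holds nearly no neurons, rests on 9 UMIs (32.5 to 135). Slc17a7 was at 0 in its 90 precursors, which allows up to 23.7 CPM. The part of free RNA in the precursor levels was not tested.

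Camk1, the founding CaMKI gene, was highest in microglia. Its level was 269 CPM (229 to 314) in microglia and 325, 320.3, 283 and 219.7 in their sets 1 to 4. No other class with at least 100 nuclei exceeded 45.7 CPM, and dentate granule neurons had 5.78 CPM. Camk1 was the member that was at least 2-fold lower in neurons, at 0.406 of the non-neuronal level (0.360 to 0.460). A neuron gave on average 3.82 times the UMIs of a non-neuronal nucleus. Counted per nucleus, without scaling, Camk1 was higher in neurons by 0.64 on the log2 scale. This scaling shifts every ratio of that comparison by 1.93 on the log2 scale.

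Camk1d, the delta form of CaMKI, was highest in CA2/CA3 neurons at 1241 CPM (1223 to 1259) and in microglia at 1194 (1107 to 1285). By set it stood at 1217, 1228, 1254, 1347, 969 and 1229 CPM in CA2/CA3 neurons. CA1 neurons, at 610.3 pooled, stood at 550.2, 642, 642, 691, 427 and 593. The groups do not overlap. Within CA2/CA3, the Nectin3 cluster had 1440.4 CPM and the Col6a1 cluster 891. Its non-neuronal fraction of 0.450 was above that of Slc17a7, and astrocytes had 484 CPM and oligodendrocytes 162.

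Camk1g, the gamma form, a membrane-bound CaMKI of neurons, was sparse. It was highest in inhibitory neurons at 22.7 CPM (20.2 to 25.5), in particular somatostatin (36.9) and Vip or Cck neurons (38.1), and in subicular or cortical neurons at 19.1. Inhibitory values by set ran from 19.5 to 30.2 CPM. Dentate granule neurons had 8 UMIs in 2446 nuclei, or 0.487 CPM (0.210 to 0.960), with 0 to 1.47 CPM over the sets. It was not seen in 133 astrocyte nuclei, which allows a share of nuclei with a UMI of up to 2.26%, or in 112 Cajal-Retzius nuclei, which allows up to 2.68%. At these depths that does not limit the share of nuclei that express it.

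Camkk1, an upstream kinase, was highest in dentate granule neurons at 83.1 CPM (78.8 to 87.6). CA2/CA3 and CA1 neurons had 54.1 and 53.6, which were not separable, and inhibitory neurons had 17.8. Dentate values by set were 64.1, 103, 71.6, 92.9, 122 and 100.2 CPM, and inhibitory values were 12.5, 19.0, 16.5, 19.7, 16.0 and 28.8. Camkk2, the other upstream kinase, which also phosphorylates AMPK, was much flatter over neurons. It ranged from 55.4 CPM in subicular or cortical to 82.5 in CA1 neurons (78.5 to 86.6). Microglia had 83.4 CPM (61.7 to 110.3), with 84.8, 64.1, 88.8 and 86.7 in sets 1 to 4. Oligodendrocytes had 7.28 CPM (5.07 to 10.1) from 35 UMIs.

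**Figure D4:**
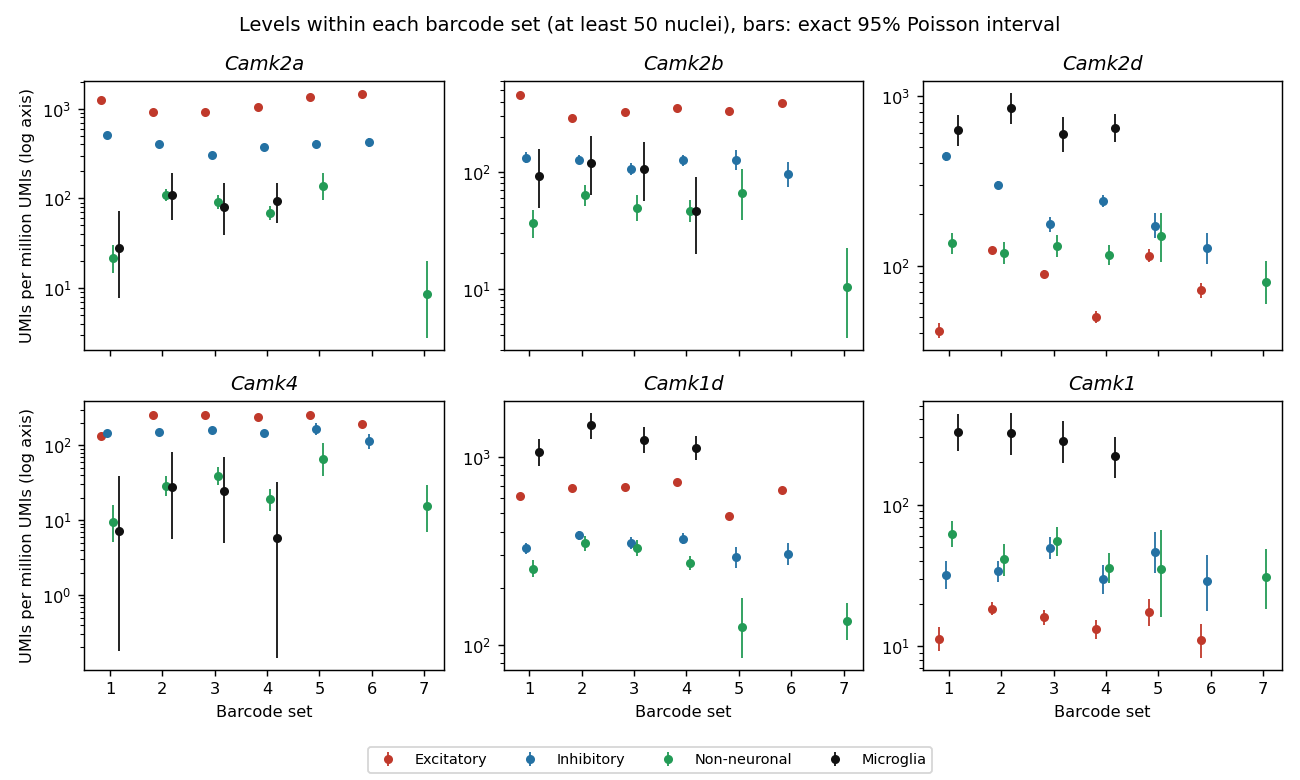
Levels of 6 kinase genes within each barcode set, as UMIs per 1000000 UMIs on a log axis, for sets with at least 50 nuclei of a class. Points are excitatory (red), inhibitory (blue), non-neuronal (green) and microglial nuclei (black), and bars are exact 95% Poisson intervals. Microglia lie highest for Camk2d (597 to 842) and Camk1 in every set where microglia are shown. Excitatory neurons lie highest for Camk2a in every set where excitatory neurons are shown.

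Set against all genes, the kinase list leaned to neurons. Of the 10 members 7 were at least 2-fold higher in neurons than in non-neuronal nuclei, where 18.7% of 13582 genes with at least 100 UMIs were, and 1 was at least 2-fold lower, where 21.5% of genes were. The 7 were Camk2a, Camk4 (8.84-fold), Camk1g (8.19), Camk2b, Camkk1 (5.93), Camkk2 (3.26) and Camk1d (2.22). The median log2 ratio of the members was 2.14, beside -0.22 over all genes. When each nucleus was given a class from its own marker UMIs with no clustering, 4 of 10 were higher and the Camk2a ratio fell to 2.26. When unnamed clusters were put in their best class, Camk1 stood at 0.501 and no member was counted as lower. That setting counted as excitatory a cluster of 797 nuclei with Slc17a7 at 8.08 CPM and Gad2 at 187. It also put 438 nuclei led by the microglial markers Inpp5d and Siglech with dentate granule neurons. Ratios from that setting thus include nuclei with markers of other classes.

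Excitatory and inhibitory neurons differed in 6 of the 10 genes by at least 2-fold, with 3 on each side. Camkk1 was 3.12-fold higher in excitatory neurons (2.73 to 3.58), Camk2b 2.83-fold (2.69 to 2.98) and Camk2a 2.67-fold (2.60 to 2.75), where 7.10% of 13140 genes were higher. Camk2d was at 0.311 of the inhibitory level (0.298 to 0.325), Camk1 at 0.421 and Camk1g at 0.423, where 7.87% of genes were lower. All 6 kept their direction within each of 6 sets. Without the Zic1 cluster, which was left out after its level was seen, Camk2d stood at 0.562 and 2 genes were lower. With unnamed clusters in their best class Camk1 stood at 0.575, and again 2 were lower. That setting counted as excitatory the 797 unnamed nuclei with Gad2 at 187 CPM, whose Camk1 level was 60.2 CPM. It did the same with the 438 nuclei led by Inpp5d and Siglech and with 200 nuclei with raised oligodendrocyte markers. The part of each in the Camk1 ratio was not tested. Camk1d was 1.90-fold higher, Camk4 1.53-fold and Camk2g at 0.727. Camkk2 was at 0.997 (0.926 to 1.07), which bounds the pooled difference in either direction, but at 1.44 without the Zic1 cluster.

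Dentate granule neurons had low levels of 4 members beside the other excitatory neurons. Camk1g was at 0.0386 of their level (0.0166 to 0.0765), Camk4 at 0.201 (0.188 to 0.215), Camk2d at 0.269 (0.244 to 0.296) and Camk1 at 0.315 (0.252 to 0.389), where 10.6% of 12685 genes were at least 2-fold lower. No member was at least 2-fold higher, where 5.61% of genes were. Camk2b was 1.82-fold, Camkk1 1.79-fold and Camk2g 1.74-fold higher. Camk4 was lower in each of 6 sets, and Camk2d in 5 of 6, with a ratio of 1.06 in set 1. Without the Dcn cluster, left out after its level was seen, Camk2d stood at 0.503 and 3 genes were lower. With unnamed clusters in their best class Camk1 stood at 0.678, under 2-fold, Camk1g at 0.127 and Camk2d at 0.411. That setting put the 438 unnamed nuclei led by Inpp5d and Siglech with dentate granule neurons, so it does not test those neurons alone. Camk2a was at 1.25, Camkk2 at 0.817 and Camk1d at 0.579.

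**Figure D5:**
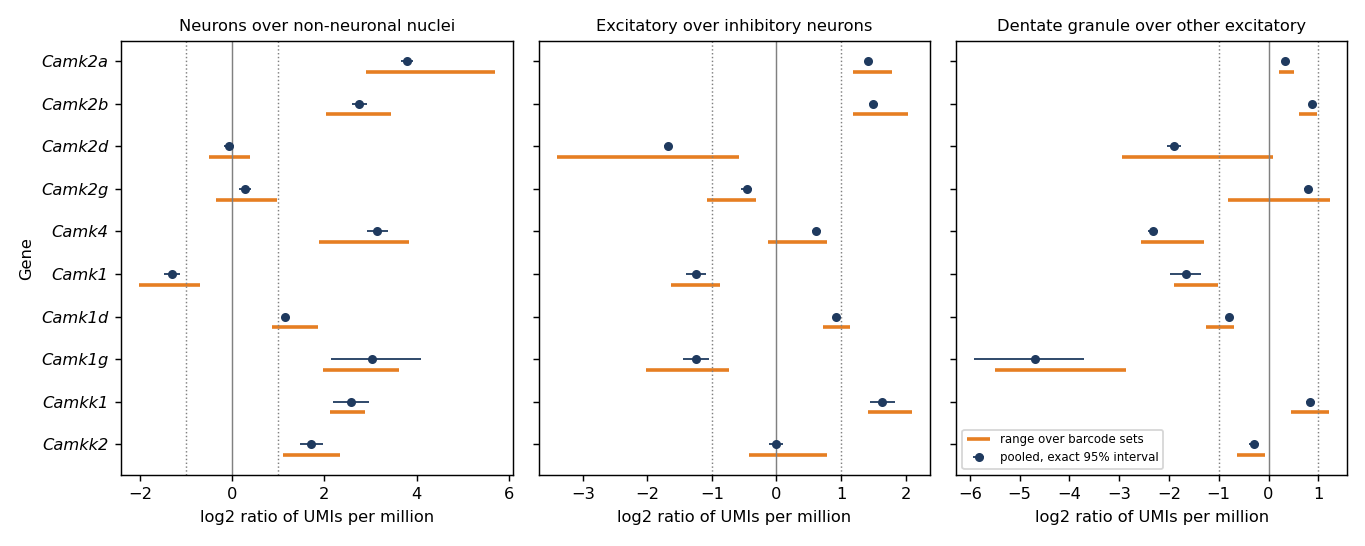
Log2 ratios of the 10 genes in the comparisons of neurons with non-neuronal nuclei, of excitatory with inhibitory neurons, and of dentate granule with other excitatory neurons. Points are pooled ratios with exact 95% intervals, orange lines are the range over barcode sets, and dotted lines mark 2-fold. Camk2d spans the widest range between excitatory and inhibitory neurons, 0.0944 to 0.666 as ratios over the sets.

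The other excitatory classes were each compared with the remaining excitatory neurons. In CA2/CA3 neurons Camk1d was 2.46-fold above the other excitatory neurons (2.41 to 2.51), where 3.39% of genes were at least 2-fold higher, and Camk4 was 1.90-fold above. Camk2g was at 0.453 there (0.416 to 0.4929), where 6.39% of genes were lower. With unnamed clusters in their best class Camk2g stood at 0.587, Camk4 at 2.37 and Camk2d, at 0.589 before, at 0.461. That setting also put the 399 excitatory nuclei of unnamed region with CA2/CA3 neurons, with Camk4 at 494 CPM and Camk2g at 129. In that setting, here and below, the other excitatory neurons included the 797 unnamed nuclei with Gad2 at 187 CPM and the 438 led by Inpp5d. The part of each in these moves was not tested. Camk1 was at 1.63, Camk2b at 1.03, Camkk1 at 0.966, Camk2a at 0.958, Camkk2 at 0.944 and Camk1g at 0.748. In subicular or cortical neurons Camk1g was 2.58-fold higher (2.19 to 3.04), where 4.49% of genes were, while Camk2b stood at 0.467 and Camkk1 at 0.481, where 4.93% were. With unnamed clusters in their best class these were 0.510 and 0.536, both under 2-fold. Camk1 was at 1.59, Camk4 at 1.40, Camk2g at 1.35, Camkk2 at 0.816, Camk1d at 0.640 and Camk2a at 0.557. In CA1 neurons Camk2d was 2.54-fold higher (2.41 to 2.68), where 1.81% of genes were, and no member was lower, where 5.49% were. That ratio turned to 0.327 without the Dcn cluster, while that of subicular or cortical neurons went from 1.20 to 2.75. In CA1 it was 1.498 with unnamed clusters in their best class and 1.17 with classes per nucleus. Of the other members in CA1, Camk1g was at 1.76, Camkk2 at 1.42, Camk2a at 1.30, Camkk1 at 0.9504, Camk2b at 0.904, Camk1d at 0.881, Camk4 at 0.787 and Camk2g at 0.644. Camk1 was at 0.565, and at 0.413 without the Dcn cluster.

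Microglia were compared with the other non-neuronal nuclei. Of the 8 members with at least 100 UMIs, 4 were at least 2-fold higher, where 17.0% of 8339 genes were, and none was lower, where 22.5% were. Camk1 was 10.6-fold higher (8.46 to 13.3), Camk2d 9.34-fold (8.14 to 10.7), Camk1d 6.19-fold (5.63 to 6.80) and Camkk2 5.85-fold (4.05 to 8.37). Each was higher in all 4 sets with enough nuclei. Camk2a was at 1.12 (0.804 to 1.52) and Camk4 at 0.611 (0.275 to 1.19), neither separable from 1. Camk2b was at 1.91 and Camk2g at 1.34. Camk1g, with 2 UMIs in microglia, and Camkk1, with 11, fell under the minimum. With classes from marker UMIs per nucleus and no clustering, the ratios were 3.86, 2.22, 1.82 and 1.85.

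The surrounding pathway was followed in a list of 47 genes. In neurons 21 of them were at least 2-fold higher than in non-neuronal nuclei and 4 lower, where 18.7% and 21.5% of all genes were, with a median log2 ratio of 0.89. The group of substrates and partners held 13 of the 21, of 19 listed. The highest were Grin2a (15.04-fold), Grin2b (13.6) and Gria1 (13.0), subunits of the NMDA and AMPA receptors on which CaMKII acts at synapses. The lowest were Rcan2 at 0.129, an inhibitor of the phosphatase calcineurin, Phkg1 at 0.184 and Marcks at 0.235, a calmodulin-binding membrane protein. The pseudokinase gene Camkv was 12.7-fold higher. The Camkv value was chosen for print after it was seen.

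Between excitatory and inhibitory neurons 6 of the 47 were higher and 3 lower, where 7.10% and 7.87% of all genes were, with a median log2 ratio of 0.16. Nrgn, neurogranin, which holds calmodulin at the synapse, was 4.76-fold higher, Grin2a 2.91-fold and Camkv 2.76-fold. Pcp4l1 was at 0.0400, Rcan2 at 0.119 and Camk2n2, a CaMKII inhibitor, at 0.264. In dentate granule neurons 2 of 46 measured were higher than in other excitatory neurons and 6 lower, where 5.61% and 10.6% of all genes were. Pcp4, another calmodulin binder, was 6.51-fold higher, Tiam1, an exchange factor that binds CaMKII, 4.62-fold and Dapk1 1.92-fold. Rem2 was at 0.0457 (3 UMIs), Gap43 at 0.0632 and Rcan2 at 0.338.

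In CA1 none of 46 was higher and 3 were lower, where 1.81% and 5.49% of all genes were. Ppm1e stood at 1.64, Camkv at 1.64 and Grin2b at 1.44, and Pcp4 at 0.176, Tiam1 at 0.302 and Rcan2 at 0.419. In CA2/CA3 neurons 2 were higher and 4 lower, where 3.39% and 6.39% were. Rem2 was 5.84-fold higher, Mylk 2.22-fold and Hdac4 1.78-fold, with Tiam1 at 0.214, Rcan2 at 0.422 and Pcp4 at 0.422. In subicular or cortical neurons 2 were higher and 3 lower, where 4.49% and 4.93% were. Rcan2 was 4.11-fold higher, Gap43 2.53-fold and Prkaa2, an AMPK subunit, 1.81-fold, with Rem2 at 0.352, Pcp4 at 0.388 and Grin2a at 0.498. In microglia 7 of 36 measured were higher and 6 lower, where 17.0% and 22.5% of all genes were. Marcks was 10.2-fold higher, Eef2k, a calmodulin-dependent kinase of elongation factor 2, 8.72-fold and Basp1 8.29-fold, with Rcan2 at 0.0491, Phkg1 at 0.198 and Prkaa2 at 0.361.

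Likeness of pattern was measured as Pearson's r of log2(CPM + 5) over the 11 classes with at least 100 nuclei, among 8499 genes. The classes share libraries and differ in depth, so r is a description. Most like Camk2a were Grin2a (0.992), Kcnab2 (0.982) and Nsf (0.982). Most like Camk2b were Slit1 (0.978), Kcnj6 (0.970) and Plppr2 (0.969). Camkk1 was most like Camk2b itself (0.961), then Plekhg5 (0.941) and Scn3b (0.940), and Camk2a with Camk2b had 0.945. Most like Camk2d were Whrn (0.882), Bcor (0.874) and Sgpl1 (0.869). Camk2g was nearest to Tspan7 (0.914), Lpin1 (0.913) and Sin3b (0.904). Camk4 was nearest to Frmpd4 (0.959), Mfsd13a (0.957) and Cabp1 (0.956), a calcium-binding protein gene. Camk1 was nearest to Gab2 (0.956), Arhgap22 (0.948) and Klhl18 (0.934), and Camk1d to Abl2 (0.938), Gcnt2 (0.924) and Dock4 (0.923). For Camkk2 the nearest were Slc2a3 (0.948), Madd (0.944) and Pabpc4 (0.941). Camk1g, sparse in most classes, was nearest to Pde11a (0.969), Stac2 (0.909) and Necab1 (0.878).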

How the data were processed

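Single nuclei of mouse hippocampus were counted by the authors with Cell Ranger 4.0.0, per the submitters' processing notes, on the build these give as mm10 (GRCm38). The deposited values are raw UMI counts per gene and barcode in 1 matrix; whether intronic reads or strand were used is not given in the sources used here. No column of the matrix was left unused.

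Barcodes with at least 500 UMIs, at least 300 detected genes and under 5% mitochondrial UMIs were kept (15553 of 15661). Scrublet removed 306 doublets (1.97%), run per barcode set; in sets 2, 5 and 7 it called under 0.5%, and is not taken to have worked there. Nuclei were clustered with scanpy 1.11.5 and leidenalg 0.10.2 on 2062 genes (30 components, 15 neighbours, resolution 1), without the kinase and pathway genes, into 30 clusters. A marker was high at 0.25 or more of its highest cluster level with at least 5% of nuclei positive, and a name needed at least 3 high markers. The naming rule was built while the clusters were in view, and 4 clusters stayed unnamed. Against the median depth of its own sets, rather than of all nuclei (3978 UMIs), a cluster of 1359 oligodendrocyte nuclei would also be unnamed. The check for raised glial markers was applied to excitatory and inhibitory clusters, not to glial or Cajal-Retzius clusters. The rule for interneuron subclasses was changed once.

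Counts were summed per class and given per 1000000 UMIs, with exact Poisson, conditional binomial or Clopper-Pearson 95% intervals (scipy 1.17.1). A gene counted as higher or lower at 2-fold with at least 100 UMIs over both sides. Values within a set needed at least 50 nuclei. Where a count was 0, the limit is that of 3 counts. The pipeline was tested on simulated counts. Total UMIs per barcode set ran from 1305838 to 26207554. The members and lists were chosen with earlier results of these data known. All 10 members were named in every comparison; of the pathway list, the 3 highest and 3 lowest ratios were named. The promoters to print, and the alternatives without the Dcn or the Zic1 cluster, were chosen after values were seen. Some values of the pathway list are left out of the text.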

Additional observations from a re-analysis of the deposited data

Results flagged for a closer look

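Camkk1 was not seen in the 469 non-neuronal nuclei of barcode set 7, a level of 0 CPM over 584039 UMIs, which allows up to 5.14 CPM. The other 5 sets lay between 7.82 and 11.7 CPM, and set 7 was far from them for the spread of the 6 sets. This was 1 of 30 such checks, and chance gives about 1 in 20 among replicates, which barcode sets are not. Set 7 also differed in make-up, with 0.151% neurons, and Slc17a7 stood at 1.71 CPM in its non-neuronal nuclei.

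An unnamed cluster of 797 nuclei, 86.7% from set 1 and led by Ebf1, Baiap3, Resp18, Tac1 and Scg2, entered no main comparison but held clear kinase levels. Its nuclei were counted as excitatory where unnamed clusters were put in their best class. Camk2d stood at 374 CPM, Camk1d at 298, Camk2a at 231, Camk2b at 156, Camk4 at 132 and Camk2g at 131. Camk1 stood at 60.2 CPM, Camkk2 at 44, Camkk1 at 17.6 and Camk1g at 16.8.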

How the results depend on the processing

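The comparisons were recomputed with other class rules, clustering resolution, doublets kept, no scaling, thinning, other depth filters and each barcode set left out. The number of kinase genes at least 2-fold lower in neurons was 0 with unnamed clusters in their best class, and 0 with no scaling. The number at least 2-fold higher in neurons was 4 with a class per nucleus from markers. With 1.5-fold as the size counted, 5 genes were higher in excitatory neurons and 3 in dentate granule neurons. Leaving out any 1 barcode set moved none of these counts by over 1.5 times. Among ratios of at least 2-fold, those that changed sign were Camk1g in microglia, at a log2 ratio of -0.52 with a class per nucleus; Camk1 in neurons, at 0.64 with no scaling; and Camk2d in CA1, at -1.61 without the Dcn cluster. The cause was not tested. Several ratios under 2-fold also changed sign: without the Dcn cluster Camk2d in CA2/CA3 went to 1.20, with no scaling Camk1g in CA2/CA3 went to 1.24, and with unnamed clusters in their best class Camk2d in subicular or cortical neurons went to 0.868. With each ratio counted once per setting, 868 of the other log2 ratios moved by less than their counting interval and 318 by more. Some of the 868 could not move. Leaving out the Zic1 cluster, for example, cannot change a comparison that holds no inhibitory neurons. The 868 therefore do not measure stability. No paired analysis was possible because the matrix ties no barcode to a sample and the labels give 1 group. Depth limits the sparse genes: Camk1g had 10 UMIs in all non-neuronal nuclei.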
